A study of Mus musculus with 46 samples.

Results

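The 6 genes described here encode the subunits that set GBAF (the GLTSCR1-containing, non-canonical BAF complex) apart from its relatives, Brd9, Bicra and Bicral, together with the BCL7 family, Bcl7a, Bcl7b and Bcl7c. They were taken by name, and all 6 were found among the 56854 genes present in both count tables. Their RNA was measured by ribosomal RNA-depleted RNA-seq in 46 whole synovial sarcomas of mice, with 1 library per tumour. Every mouse carried a human fusion gene at the Rosa26 locus, SS18::SSX2 in the hSS2 background and SS18::SSX1 in the hSS1 background, and tumours were started by injecting the limb of young mice with TATCre, a cell-permeable Cre recombinase protein. Control tumours carried the fusion alone (13 hSS2 and 5 hSS1 tumours). In the other groups the same Cre also acted on floxed Pbrm1, a subunit of the PBAF complex (8 hSS2 Pbrm1-fl and 4 hSS1 Pbrm1-fl tumours), on floxed Arid1a (8 hSS2 Arid1a-fl tumours) or on floxed Arid1b (8 hSS2 Arid1b-fl tumours), the last pair being alternative subunits of canonical BAF (CBAF). Strain, sex and age at harvest were not used here. Cells that Cre did not reach, such as vessels and blood cells, would keep intact alleles, and Cre removes a single exon of each floxed gene. The floxed gene was therefore not expected to vanish from whole tumour RNA. How many cells recombined was not measured here.

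BAF complexes slide and evict nucleosomes with the energy of ATP. They come as CBAF, PBAF and GBAF, which share the SMARCA4 or SMARCA2 motor and differ in their accessory subunits. GBAF lacks ARID subunits and SMARCB1. It holds instead BRD9, a bromodomain protein that binds acetylated histones, and either BICRA (GLTSCR1) or its paralog BICRAL (GLTSCR1L), which take the same scaffold position. The BCL7 proteins are small subunits found in all 3 complexes and bind near the motor. SS18, the part of the fusion that enters the complexes, belongs to CBAF and GBAF, which is why GBAF subunits are of interest in synovial sarcoma.

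The libraries held between 10137668 and 21294657 counts. The synovial sarcoma marker Tle1 was measured at 162.8 to 469.4 CPM, a count scaled to library size, in all 46, and Bcl2 and Sox11 were above 1 CPM in all 46, whereas the epithelial keratins Krt8 and Krt18 reached 1 CPM in 41 and 43 libraries. Skeletal muscle RNA varied widely between hSS2 tumours, with 10 muscle markers summing to between 5.64 and 44364 CPM, against 7.33 to 563.5 CPM in hSS1. The targeted genes fell by 1.27 (SE 0.09) on the log2 scale for Pbrm1 in hSS2 Pbrm1-fl tumours and by 0.95 (SE 0.13) for Arid1a in Arid1a-fl tumours, with adjusted p of 4.2e-12 and 7.01e-05 in edgeR's quasi-likelihood test. The library labelled hSS2 control replicate 9 had 238.6 CPM of Arid1a, inside the Arid1a-fl range of 229.6 to 280.02 CPM, so values with and without it were compared. The mouse numbers in the labels fell into 3 ranges, and each floxed group lay in a single range (hSS2 Pbrm1-fl in the highest, Arid1a-fl in the lowest, Arid1b-fl and hSS1 Pbrm1-fl in the middle one), whereas hSS2 control tumours lay in all 3. Estimates against the control tumours of a group's own range are therefore given where they moved much. The hSS1 and hSS2 libraries were counted into separate tables, so a level in hSS1 and a level in hSS2 are given side by side, because background and table cannot be told apart.

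The 3 BCL7 genes resemble each other at the start of their reading frames. The first 150 coding bases of each are shown. Capitals mark the bases that are identical in all 3 genes, and the sequences come from GENCODE M21 transcripts of GRCm38.
Bcl7a, start codon at chr5:123344630-123344632, + strand: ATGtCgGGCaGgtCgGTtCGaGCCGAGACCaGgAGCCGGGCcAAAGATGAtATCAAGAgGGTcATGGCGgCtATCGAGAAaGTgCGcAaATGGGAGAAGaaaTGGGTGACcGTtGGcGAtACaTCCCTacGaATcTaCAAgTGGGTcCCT
Bcl7b, start codon at chr5:135168507-135168509, + strand: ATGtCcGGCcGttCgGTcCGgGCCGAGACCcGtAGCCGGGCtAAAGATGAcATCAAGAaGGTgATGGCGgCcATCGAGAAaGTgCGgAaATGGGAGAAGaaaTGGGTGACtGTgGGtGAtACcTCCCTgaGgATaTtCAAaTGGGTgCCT
Bcl7c, start codon at chr7:127708525-127708527, − strand: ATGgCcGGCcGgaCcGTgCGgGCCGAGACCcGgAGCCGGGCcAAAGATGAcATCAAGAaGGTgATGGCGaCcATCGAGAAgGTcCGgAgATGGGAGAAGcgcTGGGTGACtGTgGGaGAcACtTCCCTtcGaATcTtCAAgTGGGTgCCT
In this stretch 115 of 150 bases (76.7%) were the same in all 3, and pairs of genes matched at 81.3% to 85.3% of them. The longest run shared without a mismatch over the whole coding sequences was 27 bases, between Bcl7b and Bcl7c, and it was 23 bases for Bcl7a and Bcl7b and 19 for Bcl7a and Bcl7c. Bicra and Bicral shared no run longer than 14 bases. The study sequenced paired reads of 150 bases, longer than each of these runs.

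The genes sit apart from each other in the genome. Brd9 (ENSMUSG00000057649) lies on chr13:73937811-73960895 and Bicral (ENSMUSG00000036568) on chr17:46798120-46858482. Bcl7a (ENSMUSG00000029438, chr5:123343834-123374992) and Bcl7b (ENSMUSG00000029681, chr5:135168283-135181855) share chromosome 5, and Bicra (ENSMUSG00000070808, chr7:15970672-16047921) and Bcl7c (ENSMUSG00000030814, chr7:127661456-127708933) share chromosome 7. Brd9 and Trip13, an AAA+ ATPase gene of the mitotic checkpoint, start head to head with 26 bases between them. Their log2 levels over the 37 hSS2 tumours gave r = 0.12, and 32.5% of the genes compared had a higher r with Brd9. The antisense RNA gene Gm26904 covers 11.3% of the exon bases of Bicral and was below the level needed for testing. Whether reads were counted by strand is not given in the sources used here, so reads of antisense partners cannot be separated from those of the members.

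Per exon length, Bicral had the highest mean level of the 6 genes. Its mean over the 46 tumours was 20.8 ± 3.803 (SD, n = 46) FPKM, which is CPM divided by the kilobases of exon, with Bcl7b at 12.02 ± 2.21, Bicra at 10.6 ± 1.596, Bcl7a at 8.02 ± 2.68, Brd9 at 7.87 ± 0.85 and Bcl7c at 6.99 ± 1.13 FPKM. The order differed in hSS1 control tumours, where Bcl7a was at 13.1, Bicra at 10.7 and Bcl7b at 8.78 FPKM. Over all tumours the means of Bcl7a, Brd9 and Bcl7c lay closer together than the SD of Bcl7a. Bcl7a moved next to Bcl7b, at 16.1 against 16.4 FPKM, when its longest transcript was taken as its length in place of all its exons. Bicral stayed the highest, at 21.6 FPKM. The paralog pair of GBAF was thus unequal in mean level, Bicral above Bicra, on both length scales.

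The members differed in how much they varied between tumours. Brd9 had the smallest ratio between the highest and the lowest of the 46 tumours, 1.59. It also had the smallest within-group SD over the 37 hSS2 tumours, 0.14 on the log2 scale. Among the 5645 genes in the level band of the members, 2.82% had a smaller within-group SD than Brd9. Bcl7c followed with an SD of 0.17 (percentile 10.2), and Bcl7a was the most variable, with a 5.47-fold span over all tumours and an SD of 0.35 (percentile 66.4). Bicra, Bcl7b and Bicral lay in between, at 0.21, 0.23 and 0.26, against a band median of 0.28. All these SDs and percentiles are those of the hSS2 tumours. Brd9 was not the steadiest in every group. In hSS1 control tumours its SD was 16.1% of its mean CPM, against 6.21% for Bcl7b. In hSS2 Pbrm1-fl tumours it was 9.97%, against 5.93% for Bcl7c.

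**Figure D1:**
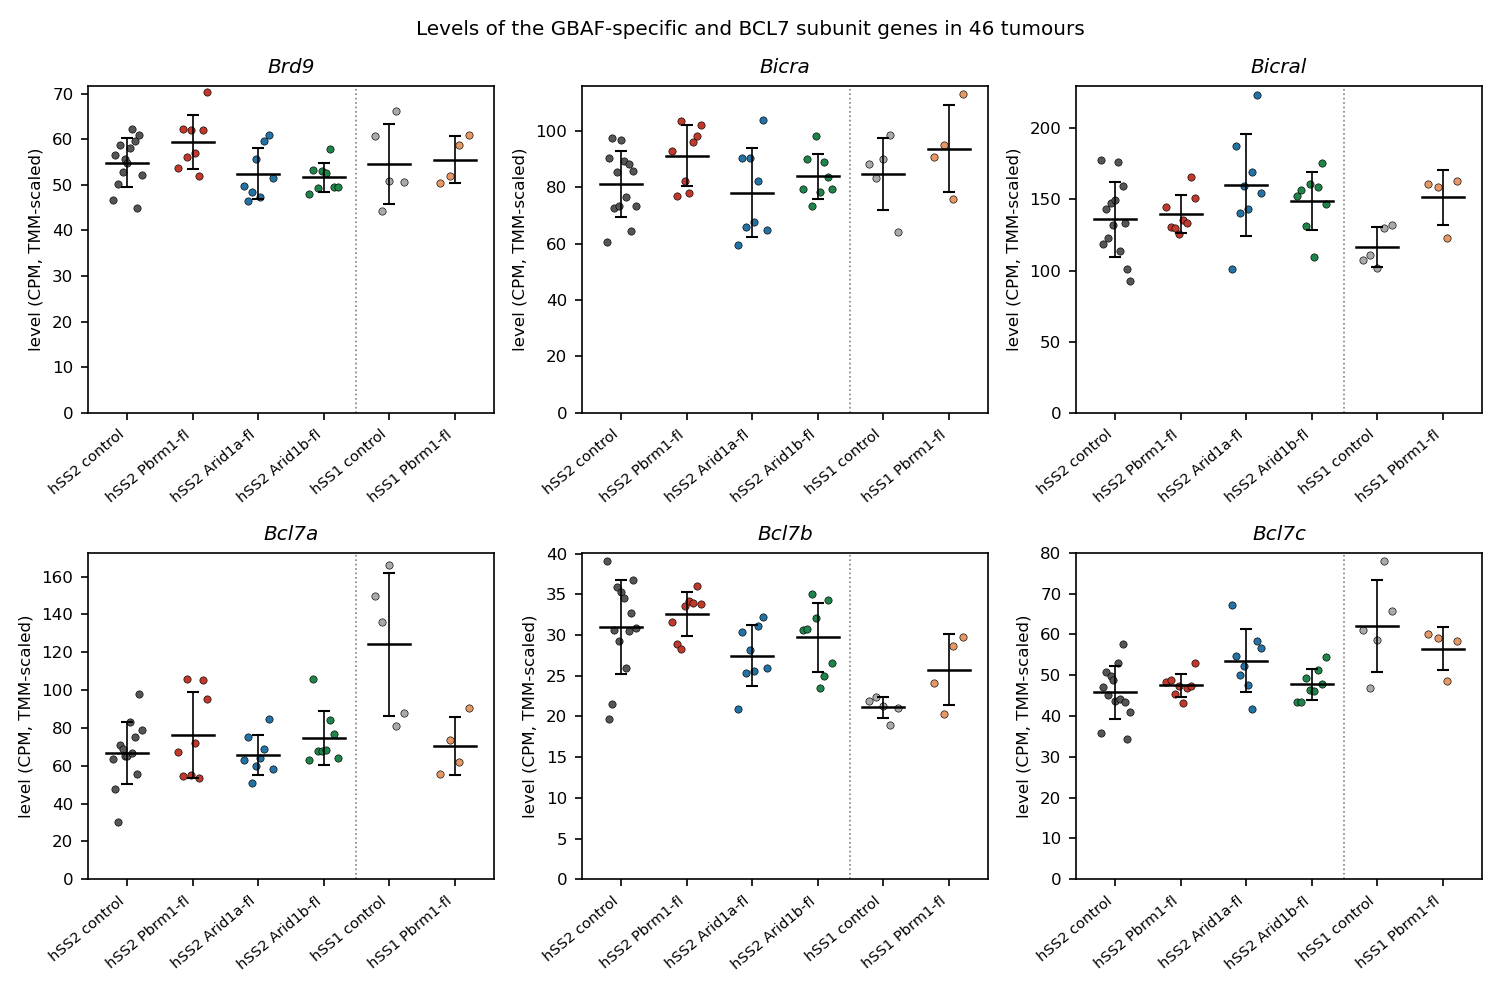
Level of each gene in CPM, scaled by TMM, in every tumour of the 6 groups (points), with the group mean (line) and SD (bar); the dotted line separates the tables of hSS2 and hSS1. Brd9 stays between 44.2 and 70.4 CPM throughout, whereas Bcl7a runs from 30.4 to 166.0 CPM and is highest in 3 of the 5 hSS1 control tumours.

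The main question was whether losing a subunit of PBAF or CBAF went along with altered RNA of the GBAF-specific and BCL7 subunits. Within hSS2 it did not to a degree that passed the test. Among the 6 pairs of hSS2 groups, 36 member tests were made and 0 passed an adjusted p of 0.05 in edgeR's quasi-likelihood test, with 5 at an unadjusted p under 0.05. Over all genes, 6.22% to 26.8% had an unadjusted p under 0.05 in these 6 comparisons. The 95% confidence intervals of the fold changes over these 36 tests stayed between 0.69 and 1.48. In whole tumours, fewer cells of a type and less RNA per cell cannot be told apart.

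In hSS2 Pbrm1-fl against hSS2 control tumours, 0 of 6 members were called, where 7.35% of all 20083 genes tested were called. DESeq2 also called 0, and 0 members had an unadjusted p under 0.05 in edgeR, against 22.4% of all genes. The median absolute log2 fold change was 0.10 over the members and 0.23 over all genes. All 6 estimates were above 0.

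Brd9, the bromodomain subunit, ran from 44.9 CPM through a median of 55.6 to 62.2 CPM in the 13 hSS2 control tumours and from 52.01 through 59.5 to 70.4 CPM in the 8 Pbrm1-fl tumours. The groups overlapped, with 2 Pbrm1-fl tumours above every control, and the means differed by 0.12 on the log2 scale (SE 0.07, adjusted p = 0.291 in edgeR). The highest control was replicate 9 at 62.15 CPM, and the next was replicate 12 at 60.9 CPM. Pbrm1-fl replicates 4 and 7, at 62.09 and 62.06 CPM, lay between these. Without control replicate 9 the log2 difference was 0.11 (SE 0.07, adjusted p = 0.333 in edgeR). Bicra had 60.6, 85.5 and 97.4 CPM as its lowest, median and highest control level and 77.0, 94.5 and 103.4 CPM in Pbrm1-fl, which differed by 0.17 on the log2 scale (SE 0.10, adjusted p = 0.289 in edgeR). For Bicra 3 of 8 Pbrm1-fl tumours exceeded every control. Bicral differed least, with medians of 133.3 and 134.3 CPM.

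The BCL7 genes also stayed short of the threshold. Bcl7a had a median of 66.7 CPM in control tumours (range 30.4 to 97.95) and 69.6 CPM in Pbrm1-fl (range 53.4 to 106.0), and the estimate was 0.19 on the log2 scale (SE 0.15, adjusted p = 0.485 in edgeR). The ranges overlapped over most of their length. Against the control tumours of its own number range the estimate was 0.51 (SE 0.204, adjusted p = 0.21 in edgeR), and leaving out 1 library in turn gave 0.094 to 0.25. Bcl7b and Bcl7c differed by 0.07 (SE 0.10) and 0.06 (SE 0.08) on the log2 scale, and Bcl7b by 0.21 (SE 0.14, adjusted p = 0.539 in edgeR) against its own range.

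The same comparison called 2 of the 22 other BAF subunit genes that were tested, from a list of 23. Pbrm1 itself fell, and Smarca4, which encodes the motor shared by all 3 complexes, rose by 0.47 (SE 0.12, adjusted p = 0.0126 in edgeR) on the log2 scale. The sum of all 10 skeletal muscle markers had a median of 183.7 CPM (range 7.42 to 14042) in Pbrm1-fl and 3139 CPM (range 12.7 to 44364) in control tumours, and that of the 5 synovial sarcoma markers 280.5 CPM (range 235.5 to 323.2) and 401.4 CPM (range 259.1 to 580.3), with 0 markers of either list at a group median under 1 CPM. The part of these differences in the values of Brd9, the other members and Smarca4 was not tested.

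In hSS2 Arid1a-fl against control tumours, 0 of 6 members were called by edgeR, against 3.17% of all genes. An unadjusted p under 0.05 was found for 23% of all genes and for 1 member. That member was Bcl7c. Its lowest, median and highest levels were 34.4, 45.2 and 57.6 CPM in control tumours and 41.7, 53.6 and 67.2 CPM in Arid1a-fl tumours. Of the 8 Arid1a-fl tumours 7 lay above the control median and 2 above every control, and the lower end overlapped. The estimate on the log2 scale was 0.22 (SE 0.08, p = 0.00872, adjusted p = 0.0983 in edgeR), and DESeq2 did call it, with an adjusted p of 0.0436. Without the library labelled control replicate 9 it was 0.22 with an adjusted p of 0.0956 in edgeR.

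Bcl7b had an estimate of opposite sign in the same tumours, with medians of 30.8 CPM in control and 27.04 CPM in Arid1a-fl tumours and a log2 difference of −0.18 (SE 0.10, adjusted p = 0.282 in edgeR). The log2 ratio of Bcl7b to Bcl7c, which does not depend on how libraries are scaled, was −0.96 ± 0.35 (SD, n = 8) in Arid1a-fl and −0.57 ± 0.42 (SD, n = 13) in control tumours. The difference of −0.39 had a two-sided exact permutation p of 0.0435, or 0.290 after adjustment over the 20 ratio tests made, with 7 of 8 tumours below the control median.

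Bicral, the GLTSCR1L subunit, had a median of 157.3 CPM in Arid1a-fl against 133.3 CPM in control tumours, with 7 of 8 above the control median and a log2 difference of 0.22 (SE 0.11, adjusted p = 0.231 in edgeR). Against control tumours of its own number range it was 0.41 (SE 0.14, adjusted p = 0.0746 in edgeR). Its partner Bicra had medians of 75.0 and 85.5 CPM, and a log2 difference of −0.06 (SE 0.10). The log2 ratio of Bicra to Bicral was −1.03 ± 0.16 (SD, n = 8) in Arid1a-fl and −0.73 ± 0.35 (SD, n = 13) in control tumours, and all 8 Arid1a-fl tumours lay below the control median. That difference of −0.29 had an exact permutation p of 0.0398 and an adjusted p of 0.290, so it did not pass either.

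Proliferation genes were looked at in the same tumours. All 10 genes of the proliferation list summed to a median of 881.2 CPM (range 291.0 to 2179) in Arid1a-fl tumours. In hSS2 control tumours the median was 389.5 CPM (range 99.8 to 1652), and none of the 10 had a group median under 1 CPM. The part of this difference in the Bcl7b, Bcl7c and Bicral values was not tested. Of the other BAF subunit genes 3 of 22 were called: Arid1a fell, while Actl6a, an actin-related subunit common to the 3 complexes, rose by 0.44 (SE 0.12, adjusted p = 0.0467 in edgeR) and Smarcd2, a core subunit, rose by 0.43 (SE 0.12, adjusted p = 0.0453 in edgeR).

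In hSS2 Arid1b-fl against control tumours, 0 of 6 members were called by either tool, where edgeR called 0.0548% of all genes. An unadjusted p under 0.05 in edgeR was found for 6.22% of all genes and for 0 members. The absolute log2 fold changes ran from 0.05 to 0.16. Brd9 was at 48.03 to 57.8 CPM in the 8 Arid1b-fl tumours, inside the control range. None of the 22 other BAF genes was called in this comparison, Arid1b included, whose log2 fold change of −0.80 had an adjusted p of 0.145 in edgeR. Arid1b ran from 109.7 through a median of 189.1 to 353.6 CPM in these tumours, the highest of them above the control median of 322.1 CPM.

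Setting the floxed groups against each other gave no called member. Between hSS2 Pbrm1-fl and Arid1a-fl, 0 of 6 members were called, against 12.3% of all genes. An unadjusted p under 0.05 was found for 26.8% of all genes and for 3 members. They were Brd9 (log2 difference 0.19, SE 0.07, adjusted p = 0.0803 in edgeR), Bcl7b (0.26, SE 0.11, adjusted p = 0.139) and Bicra (0.24, SE 0.11, adjusted p = 0.15), each higher in Pbrm1-fl. Of all 6 members 4 had estimates above 0, and 2 below, Bicral (−0.19, SE 0.13) and Bcl7c (−0.16, SE 0.09). Brd9 passed when either Arid1a-fl replicate 6 or replicate 7 was left out (adjusted p = 0.0485 and 0.0454 in edgeR). Between Pbrm1-fl and Arid1b-fl 0 of 6 were called against 4.37% of all genes, with Brd9 again the nearest at 0.21 (SE 0.07, adjusted p = 0.105 in edgeR) and the 1 member with an unadjusted p under 0.05. Of all genes 17.9% had an unadjusted p under 0.05 there. Between Arid1a-fl and Arid1b-fl 0 of 6 were called against 0.0996% of all genes, and 0 had an unadjusted p under 0.05, against 12.5% of all genes. DESeq2 called 0 members in each of these comparisons.

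**Figure D2:**
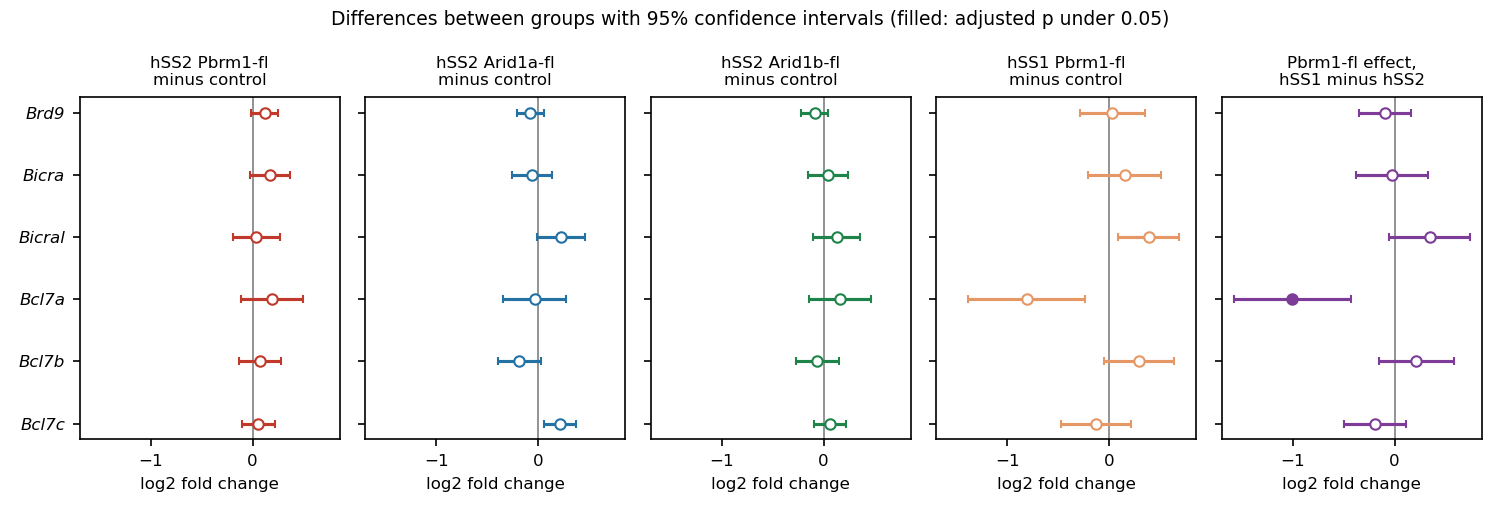
Log2 fold change of each gene (points) with its 95% confidence interval (bars) for each floxed group against its control and, on the right, for the difference between the Pbrm1-fl effects of the 2 backgrounds; filled points passed an adjusted p of 0.05. The filled point is Bcl7a at −1.003, and the hSS2 estimates lie between −0.18 and 0.22.

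Bcl7a stood out in the hSS1 background. Its levels in the 5 hSS1 control tumours, replicates 1 to 5, were 149.7, 136.0, 166.0, 81.0 and 88.1 CPM. In the 4 hSS1 Pbrm1-fl tumours, replicates 1 to 4, they were 55.7, 73.6, 62.2 and 90.5 CPM. Of the Pbrm1-fl tumours 3 lay below every control, and replicate 4 overlapped the lowest controls, replicates 4 and 5.

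The log2 fold change of Bcl7a in hSS1 was −0.81 (SE 0.25, p = 0.0109, adjusted p = 0.184 in edgeR), so it did not pass there. In that comparison 0 of 6 members were called by edgeR and by DESeq2, and 2 had an unadjusted p under 0.05, where 0.00562% of all 17786 genes were called. Of all genes 17.2% had an unadjusted p under 0.05 in edgeR. With all 46 libraries in a single fit the same difference was −0.82 with an adjusted p of 0.0436 in edgeR. Restricted to hSS1 control tumours from the mouse number range of the Pbrm1-fl tumours, it was −0.65 with an adjusted p of 0.408.

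The difference between the Pbrm1-fl effects in hSS1 and in hSS2 was tested directly. It called 1 of 6 members, Bcl7a, against 2.86% of all 21725 genes. The estimate was −1.003 on the log2 scale (SE 0.29, 95% confidence interval −1.58 to −0.43, adjusted p = 0.0446 in edgeR), and DESeq2 gave an adjusted p of 0.0182. In the separate fits of each background the effects were the −0.81 in hSS1 and the 0.19 in hSS2 given above, of which neither passed. In the single fit of 46 libraries, which gave the difference, the hSS1 effect did pass, as given above. The call of the difference was narrow, since it passed in 14 of 30 fits that each left out 1 library, with estimates from −1.14 to −0.87 and adjusted p from 0.0217 to 0.132. Without hSS2 control replicate 9 the adjusted p was 0.0508, and the call was also lost when any 1 of hSS1 control replicates 1, 2 or 3, hSS1 Pbrm1-fl replicates 1, 2 or 3, hSS2 control replicates 2, 5, 6, 7 or 11, or hSS2 Pbrm1-fl replicates 3, 5, 7 or 8 was left out. With control tumours restricted to the mouse number range of their floxed group the estimate was −1.17 with an adjusted p of 0.128.

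Relative to Bcl7b, Bcl7a did not overlap between the hSS1 groups. The log2 ratio of Bcl7a to Bcl7b was 2.77, 2.599, 2.95, 2.09 and 2.06 in hSS1 control replicates 1 to 5 and 1.203, 1.85, 1.12 and 1.598 in hSS1 Pbrm1-fl replicates 1 to 4. Every Pbrm1-fl value lay below every control value. Bcl7a alone overlapped between these groups, and the Bcl7b estimate had the opposite sign (log2 difference 0.29, SE 0.15). How large a share of other gene ratios separates as fully in these tumours was not tested. The difference of −1.05 had an exact permutation p of 0.00794, which is the smallest that 4 against 5 tumours allow, and 0.159 after adjustment over the 20 ratio tests. In hSS2 the same ratio was 1.17 ± 0.44 (SD, n = 8) in Pbrm1-fl and 1.08 ± 0.30 (SD, n = 13) in control tumours, an exact permutation p of 0.588.

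**Figure D3:**
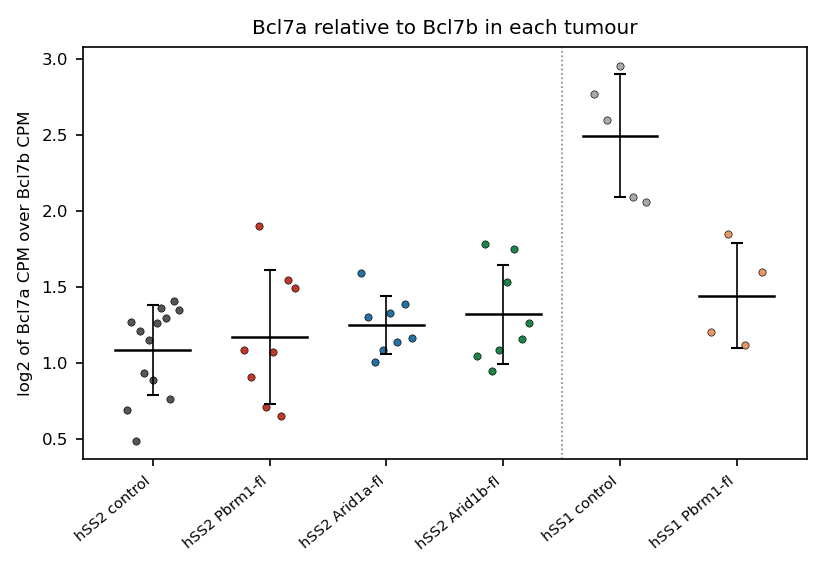
Log2 ratio of the Bcl7a level to the Bcl7b level in each tumour (points), with group mean (line) and SD (bar). The hSS1 control tumours sit between 2.06 and 2.95 and the hSS1 Pbrm1-fl tumours between 1.12 and 1.85; the hSS2 groups, from the other table, have means between 1.08 and 1.32.

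The other members in hSS1 gave smaller differences. Bicral was at 107.3, 110.9, 101.7, 130.1 and 132.2 CPM in the control tumours and at 160.8, 159.0, 122.6 and 163.2 CPM in the Pbrm1-fl tumours. All but Pbrm1-fl replicate 3 lay above every control, and the log2 difference was 0.39 (SE 0.13, p = 0.0163, adjusted p = 0.205 in edgeR). Bcl7b was at 18.9 to 22.3 CPM in control and 20.3 to 29.8 CPM in Pbrm1-fl tumours, with 3 of 4 above every control and a log2 difference of 0.29 (SE 0.15, adjusted p = 0.352 in edgeR). Brd9 (0.03, SE 0.14), Bicra (0.15, SE 0.16) and Bcl7c (−0.12, SE 0.15) had intervals that included 0.

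Marker sums were set beside the hSS1 groups. The 10 proliferation genes summed to a median of 1757 CPM (range 924.0 to 2391) in hSS1 control and 925.3 CPM (range 464.8 to 1335) in hSS1 Pbrm1-fl tumours. For the 10 macrophage markers the medians were 161.0 CPM (range 77.1 to 229.2) and 97.7 CPM (range 72.3 to 216.8), and for the 10 endothelial markers 458.9 CPM (range 255.8 to 484.7) and 306.4 CPM (range 195.5 to 369.3). None of these lists had a marker at a group median under 1 CPM. Their part in the Bcl7a and Bicral values was not tested. Pbrm1 itself differed by −0.75 on the log2 scale in hSS1 Pbrm1-fl tumours (adjusted p = 0.193 in edgeR), with a range of 96.1 to 237.1 CPM against 257.5 to 354.0 CPM in control tumours. For these floxed tumours the paper proposes selection of cells that recombined a single Pbrm1 allele, which was not tested here. Neither the hSS1 comparison nor the difference between backgrounds called any other BAF subunit gene, of 22 and 23 tested.

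Across groups, the order of mean levels differed from gene to gene. Bcl7a was highest in hSS1 control (124.1 ± 37.8 CPM, SD, n = 5) and Bcl7b lowest there (21.1 ± 1.31 CPM, n = 5), against 66.8 ± 16.6 and 30.99 ± 5.798 CPM in hSS2 control (n = 13). Bcl7c was also highest in hSS1 control, at 62.1 ± 11.3 CPM against 45.8 ± 6.53 CPM in hSS2 control. For Brd9 the highest and lowest of the 6 group means differed by a factor of 1.15, for Bicra by 1.201, for Bicral by 1.37, for Bcl7c by 1.36, for Bcl7b by 1.54 and for Bcl7a by 1.89. Within hSS2, no pair of groups, neighbours in these orders included, differed past the threshold for any member.

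Among the 39 pairs tested within groups, the strongest relation was that of Bcl7b with proliferation. With group means removed, log2 Bcl7b over the 37 hSS2 tumours fell as the mean log2 level of the 10 proliferation genes rose, with Pearson's r = −0.69 and Spearman's rho = −0.71 (permutation p = 2e-05 and 1e-05, the latter the smallest that 100000 permutations can give, adjusted p = 0.00078 and 0.00039 over 39 pairs). Without the 2 tumours farthest from the median score r was −0.69. It was −0.83, −0.85 and −0.52 within the 3 mouse number ranges, of 13, 12 and 12 tumours. In the 9 hSS1 tumours r was 0.08 and rho 0.18 (exact permutation p = 0.907 and 0.720), over centred scores that spanned less. Whether the relation differed between the backgrounds, or from that of other genes with the score, was not tested.

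Bcl7c leaned the opposite way. Its r with the proliferation score was 0.50 in hSS2 (permutation p = 0.00448, adjusted p = 0.0487) and rho was 0.40 (adjusted p = 0.074), with r of 0.40 without the 2 farthest tumours, 0.73, 0.02 and 0.50 within the ranges and 0.31 in hSS1. Bcl7b and Bcl7c themselves gave r = −0.41 (adjusted permutation p = 0.0791).

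**Figure D4:**
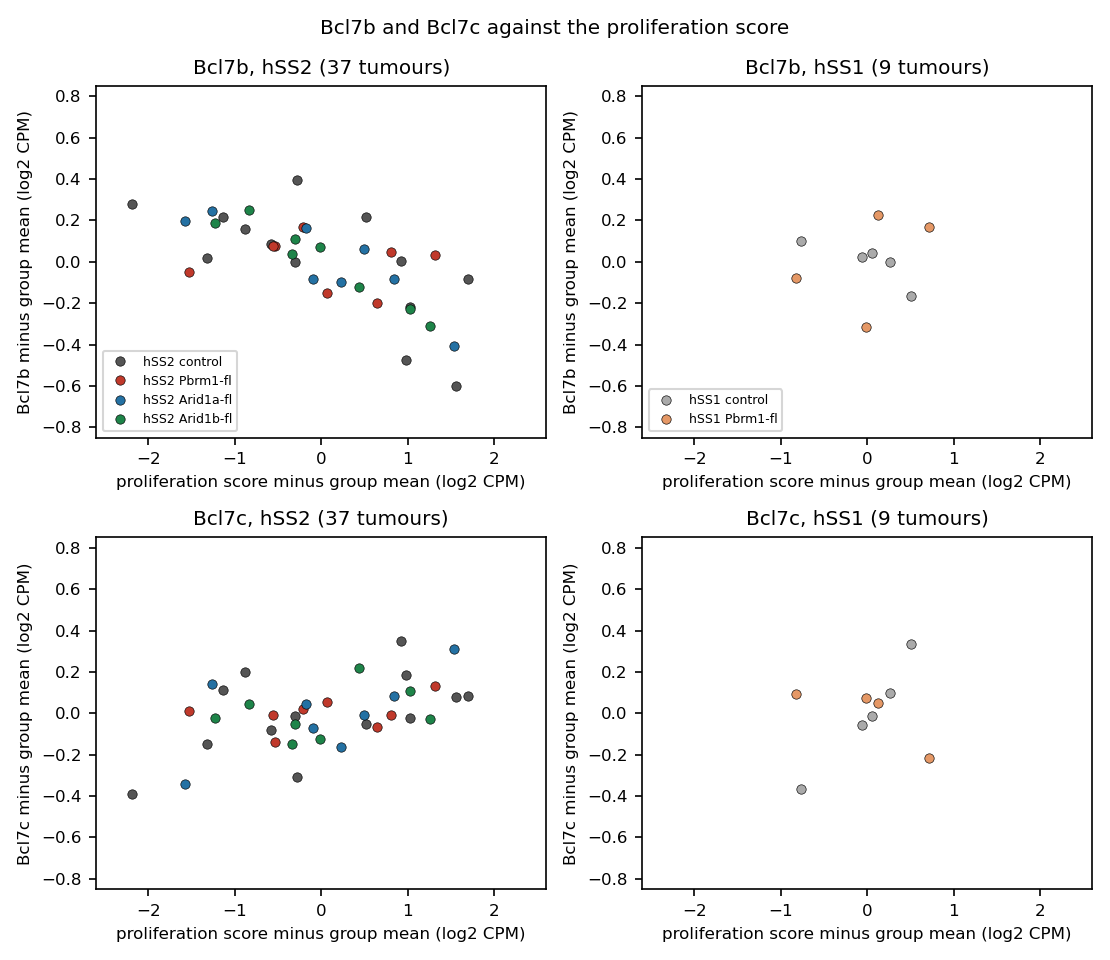
Log2 level of Bcl7b (top) and Bcl7c (bottom) against the proliferation score, the mean log2 CPM of 10 cell cycle genes, both with the group mean removed; each point is a tumour, hSS2 on the left and hSS1 on the right. In hSS2 Bcl7b falls along the score (r = −0.69) and Bcl7c rises more loosely (r = 0.50), and in hSS1 r is 0.08 and 0.31.

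The promoters of these 2 genes are shown because their r with the score had opposite signs in hSS2, although rho of Bcl7c did not pass. In hSS1 both r were above 0. Whether the motif marked below has a part in either relation was not tested. The 250 bases before each RefSeq start site (GRCm38.p6) are printed with the E-box CACGTG, a palindrome bound by basic helix-loop-helix factors such as MYC and USF, in capitals.
Bcl7b, chr5:135168122-135168371, + strand: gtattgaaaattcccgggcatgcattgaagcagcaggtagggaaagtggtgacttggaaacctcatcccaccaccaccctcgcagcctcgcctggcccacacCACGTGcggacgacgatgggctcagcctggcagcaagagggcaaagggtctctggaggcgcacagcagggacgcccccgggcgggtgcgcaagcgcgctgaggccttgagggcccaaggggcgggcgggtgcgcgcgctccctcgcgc
Bcl7c, chr7:127708767-127709016, − strand: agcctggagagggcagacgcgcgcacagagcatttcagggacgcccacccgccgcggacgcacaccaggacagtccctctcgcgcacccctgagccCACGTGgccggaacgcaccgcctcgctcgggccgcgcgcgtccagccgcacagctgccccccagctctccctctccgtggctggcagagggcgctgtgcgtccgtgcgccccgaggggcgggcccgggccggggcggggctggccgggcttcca
Each holds 1 match, which ends 142 bases before the RefSeq start site in Bcl7b and 148 bases before it in Bcl7c. The GENCODE starts given above lie inside both windows, and by them the Bcl7c match falls within the gene. The same 6 letters, which include a CG, occur in 6.05% of the 27025 promoter windows of that length, a share not matched for CG content. Both are rich in CG, with 21 and 32 CG pairs against a median of 6 over all windows. The Brd9 window held 0 matches and 33 CG pairs, and Bicra, Bicral and Bcl7a had no entry in the table.

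Of the 39 pairs of members or of a member with a score, 6 passed both correlation tests. Beyond Bcl7b with proliferation these were Bicral with Bcl7b (r = 0.48), Bicra with Bicral (r = 0.47, with 0.69, 0.56 and −0.15 within the 3 number ranges), Bcl7a with macrophage markers (r = −0.47), Brd9 with skeletal muscle markers (r = −0.42) and Bicra with macrophage markers (r = −0.40). The adjusted permutation p of these 5 was 0.0487 for r and 0.0462 for rho, just inside the threshold. How large a share of all genes passes with the same scores was not tested. With a prior count of 0.5 or DESeq2 size factors only Bcl7b with proliferation passed by Pearson's r. In the 9 hSS1 tumours Bcl7a with macrophage markers gave r = −0.72 (exact permutation p = 0.0302, adjusted p = 0.172 over the 6 pairs), Bicra with macrophage markers −0.71, Brd9 with muscle −0.49, Bicra with Bicral 0.19 and Bicral with Bcl7b −0.43.

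The genes whose log2 levels followed each member most closely over the 37 hSS2 tumours, out of 13220 compared, are a description and not a test, and libraries and their depth are shared by the genes compared. Bcl7c was followed by Pola2 (r = 0.75), Eri1 (0.75) and E2f1 (0.74), and Pola2, a DNA polymerase alpha subunit, and E2f1, an activator of S-phase genes, had r of 0.85 and 0.68 over the 9 hSS1 tumours. Bcl7b was followed by Zbtb4 (0.82), Rab5b (0.77) and Camta2 (0.77), with 0.85, 0.68 and 0.68 in hSS1. Zbtb4 encodes a zinc finger repressor that binds methylated DNA.

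Bicral had the closest followers of all 6, Proca1 (0.86), Fam120b (0.84) and Cbx6 (0.84), a Polycomb chromodomain gene, with 0.81, 0.63 and 0.93 in hSS1. Bicra was followed by Cc2d1a (0.71) and Mtfmt (0.69), among others, and Brd9 by Ccdc84 (0.74), Fibp (0.69) and Sugp2 (0.69), a splicing-related gene. In hSS1 Sugp2 kept an r of 0.87 with Brd9 whereas Ccdc84 had 0.06. Bcl7a was followed by Tfap2a (0.71), a neural crest and ectoderm transcription factor gene, Trappc6b (0.66) and Tm7sf2 (0.66), and in hSS1 these gave 0.03, 0.18 and 0.08.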

How the data were processed

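Fresh frozen tumours were sequenced with a stranded, ribosomal RNA-depleted kit. The authors deposited raw counts per Ensembl gene in 2 tables, made with STAR 2.7.11 on mm10 and featureCounts 1.6.3 per the submitters' processing notes. The annotation release, the strand setting and the handling of reads with several matches are not given in the sources used here, and all of these can shift counts between overlapping genes and paralogs. The tables held 56980 genes (hSS2) and 56941 genes (hSS1). Groups came from the sample titles, replicates were numbered within groups, and no pair of libraries in a group agreed within counting noise (chi-square per gene of at least 18.5). The labels tie each library to a numbered mouse.

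Counts were filtered with filterByExpr, scaled by TMM and tested with edgeR 4.0.16 (robust quasi-likelihood F-test) in R 4.3.3, with 37 hSS2 libraries in 1 fit, 9 hSS1 libraries in another and all 46 for the difference between backgrounds. P-values were adjusted over all genes tested (Benjamini-Hochberg, threshold 0.05). DESeq2 1.42.0 was an alternative. CPM are TMM-scaled, log2 CPM used a prior count of 2, and FPKM divide CPM by the exon bases of GENCODE M21. Ratios were compared with two-sided exact permutation tests, and correlations used 100000 permutations within groups. On simulated counts the hSS2 fit recovered 80% of 2-fold and 34% of 1.5-fold changes, the hSS1 fit 34% and 3%, and the fit of the difference between backgrounds 9% and 1%. The simulation gave every gene the same spread, which was set beforehand and not taken from the members. These shares therefore do not measure the power for any member.

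The members and gene lists were chosen with earlier results of these data known. The text names the 6 members, the targeted genes, other BAF subunits past the threshold, genes overlapping a member, and the 3 genes with the highest r to each member among those with a mean of at least 5 CPM. For Bicra, 1 of these 3 genes is not reported here. Trip13, as the neighbour of Brd9, and the E-box were picked after the data were seen. Coding sequences came from GENCODE and promoters from RefSeq, which listed 3 of the 6 members.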

Additional observations from a re-analysis of the deposited data

Results flagged for a closer look

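The Pbrm1-fl effect on Bcl7a in hSS1 minus that in hSS2 was −1.003 on the log2 scale, past the threshold by the test of the difference itself (edgeR, adjusted p = 0.0446), with 4 of 4 hSS1 Pbrm1-fl tumours below the hSS1 control median and 5 of 8 hSS2 Pbrm1-fl tumours above that of hSS2.

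Of 55 sets of 4 to 10 tumours screened for a single value far from the rest, 4 held one, and chance alone gives about 1 in 20. In hSS1 Pbrm1-fl, replicate 3 was low for both Bicral (122.6 CPM, the next at 159.0) and Bcl7c (48.6 CPM, the next at 58.4). In hSS1 control, replicate 5 had a log2 ratio of Bicra to Bicral of −1.04, with the next at −0.41. In hSS2 Arid1b-fl, replicate 2 had a log2 ratio of Bcl7a to Bcl7c of 1.29, with the next at 0.72.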

How the results depend on the processing

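No replicate or litter block was fitted. The labels give mouse numbers, but neither replicate numbers nor named litters. The paper compared tumour growth between littermates of different genotypes, and some floxed and control tumours have neighbouring mouse numbers. In hSS1, control replicate 3 is mouse 1567 and Pbrm1-fl replicate 1 is mouse 1568. Any pairing of littermates was left out of the tests. As each floxed group lay in 1 mouse number range, the limit to control tumours of that range stands for a block on the range. The call of Bcl7a between backgrounds (−1.003) fell to 0 calls at a threshold of 0.01, without a filter on low counts (−0.98, adjusted p = 0.0788), with control tumours limited to the number range of each floxed group (−1.17) and with only the compared groups in the fit (−0.998, adjusted p = 0.0894), and held with DESeq2 and its size factors. Leaving out 1 library gave 0 to 1 calls there (−1.14 to −0.87), 0 to 1 in hSS2 Arid1a-fl against control (Bcl7c, adjusted p = 0.0376 without Arid1a-fl replicate 6 and 0.0465 without control replicate 10) and 0 to 1 in Pbrm1-fl against Arid1a-fl. DESeq2 gave 1 call in hSS2 Arid1a-fl against control, and 1 fit of 46 libraries gave 1 call in hSS1. Causes of these shifts, other than fewer libraries or genes, were not tested.

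Limiting control tumours to that range left every member uncalled. It moved Bcl7a from 0.19 to 0.51 and Bcl7b from 0.07 to 0.21 in hSS2 Pbrm1-fl, Bicral from 0.22 to 0.41 and Bcl7a from −0.03 to −0.20 in Arid1a-fl, and Bcl7b from −0.06 to −0.17 in Arid1b-fl, and it turned the sign of some values near 0. In Pbrm1-fl Bicral became −0.028. In Arid1a-fl Bicra became 0.0019. In Arid1b-fl Bicra became −0.025, Bicral −0.012 and Bcl7c −0.015. Between floxed groups Bcl7c became 0.089 (Pbrm1-fl minus Arid1b-fl), and Brd9 −0.018 and Bicra 0.027 (Arid1a-fl minus Arid1b-fl). Leaving out 1 library also turned uncalled signs, with ranges of −0.0081 to 0.080 for Bicral in hSS2 Pbrm1-fl, −0.096 to 0.023 for Bcl7a in Arid1a-fl, −0.017 to 0.12 for Brd9 in hSS1, −0.14 to 0.011 for Brd9 and −0.12 to 0.075 for Bicra between backgrounds, −0.056 to 0.13 for Bcl7a and −0.036 to 0.036 for Bcl7c in Pbrm1-fl minus Arid1b-fl, and −0.021 to 0.044 for Brd9 in Arid1a-fl minus Arid1b-fl. The hSS2 Pbrm1-fl ratio differences ran from −0.017 to 0.16 (Bcl7a to Bcl7b) and −0.030 to 0.085 (Bcl7b to Bcl7c). By longest transcript, mean levels moved to 11.97 FPKM for Brd9, 12.7 for Bicra, 16.1 for Bcl7a and 16.4 for Bcl7b. Pairs past Pearson's test went from 9 to 1 with a prior count of 0.5 and to 1 with DESeq2 size factors, which put r at −0.0042 for Brd9 with Bicral, 0.013 for Bicral with muscle and 0.019 for Bcl7c with macrophage markers. In the hSS1 tumours, a check added after seeing the data, r was −0.43 for Bicral with Bcl7b and 0.084 for Bcl7b with proliferation. Small differences between groups of 4 and 5 libraries were not detectable at this number of tumours.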
